A study of Mus musculus with 3 samples.

Results

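The BCL2 family and its caspase decide whether a developing neuron lives or dies, and 9 of its genes were followed here in SST+ neurons of the mouse neocortex (NCx) around birth. They were taken by name from the 31053 genes counted: Bcl2, Bcl2l1, Bcl2l2 and Mcl1, which hold death back, Bax and Bak1, which open the mitochondrial membrane, Bcl2l11 and Bbc3, which start the process, and Casp9, which carries it out. All 9 were found in the count tables.

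The study asked how SST+ long-range projection (LRP) neurons and SST+ interneurons come to differ. It sorted GFP+ cells from the NCx of SstCre/+;RCEfl/+ mice, in which Cre made from the Sst locus turns on GFP in any cell that has expressed Sst and in its later life. One library of single cells was made per stage, from 6 pooled animals for embryonic day 16.5 (E16.5) and 3 pooled animals each for postnatal days 1 (P1) and 5 (P5), all of the same genotype. The labels call the cells neurons, and no group lacks Cre or the reporter. Because animals were pooled and each stage has 1 library, a difference between stages cannot be told apart from one between libraries. P1 and P5 tissue was cleared of myelin on percoll, P5 tissue was also treated with trypsin and DNase, and E16.5 tissue had neither, so the preparation changed with the stage. The sort took cells that excluded DAPI, a dye that enters cells with a broken membrane, so that cells late in death were left out at every stage.

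In the intrinsic pathway of apoptosis, BAX and BAK1 form pores in the outer membrane of mitochondria and let cytochrome c out. BCL2, BCL-XL (from Bcl2l1), BCL-W (from Bcl2l2) and MCL1 bind them and keep them inactive, and the BH3-only proteins BIM (from Bcl2l11) and PUMA (from Bbc3) block these guards or engage BAX and BAK1 directly. Cytochrome c then assembles APAF1 into the apoptosome, which activates caspase-9. Cortical interneurons are made in excess and many die by this route in the early postnatal weeks.

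Members of the family meet through the BH3 motif, a short helix that fits a groove on the anti-death proteins. The coding bases of this motif are shown for the 8 BCL2 family genes, because the motif is what the guards, the pore formers and the BH3-only proteins share. Capitals mark the codons for leucine or methionine, 3 residues in between, glycine or alanine, and aspartate. The sequences are from GENCODE M21 transcripts on GRCm38, written 5′ to 3′ on the coding strand.
Bcl2, chr1:106712572-106712613, minus strand, exon 1: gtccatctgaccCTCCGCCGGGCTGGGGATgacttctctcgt
Bcl2l1, chr2:152829694-152829735, minus strand, exon 2: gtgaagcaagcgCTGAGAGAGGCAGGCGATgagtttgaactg
Bcl2l2, chr14:54884505-54884546, plus strand, exon 3: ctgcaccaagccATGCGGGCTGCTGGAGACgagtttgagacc
Mcl1, chr3:95659424-95659465, plus strand, exon 1: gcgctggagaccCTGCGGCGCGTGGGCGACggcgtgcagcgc
Bax, chr7:45465994-45466035, minus strand, exon 3: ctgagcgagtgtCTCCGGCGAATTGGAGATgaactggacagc
Bak1, chr17:27022528-27022569, minus strand, exon 4: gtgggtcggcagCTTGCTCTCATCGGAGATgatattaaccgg
Bcl2l11, chr2:128147138-128147179, plus strand, exon 3: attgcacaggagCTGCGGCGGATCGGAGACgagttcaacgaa
Bbc3, chr7:16313761-16313802, plus strand, exon 3: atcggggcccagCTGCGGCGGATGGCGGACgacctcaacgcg
Each of the 8 proteins holds this pattern once. The pattern is loose, and the proteins of 27.4% of 21894 genes hold it somewhere, so a match describes these letters and not a binding site. Casp9 has no BH3 motif. The capitals in its sequence mark the codons of the active-site pattern around the catalytic cysteine. The printed stretch is split between exons 6 and 7 on the plus strand of chromosome 4. The pattern is found in the proteins of 0.375% of the genes.
Casp9, chr4:141807235-141811549, plus strand, exons 6 and 7 without the intron: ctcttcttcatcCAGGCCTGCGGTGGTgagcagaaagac

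The 3 libraries held 25638779 UMIs (unique molecular identifiers, each marking 1 captured mRNA molecule) in 4478 cells at E16.5, 15654107 in 4440 cells at P1 and 13429055 in 3406 P5 cells. Cells with more than 700 genes and a share of mitochondrial (mt-) UMIs under 10% were kept, which were 3952, 2501 and 2980 cells. Their median depth was 5577, 3293 and 3936 UMIs, and their median mt- share 4.05%, 5.92% and 4.21%. Only 56.3% of cells passed at P1, beside 88.3% at E16.5 and 87.5% at P5. The libraries shared 1 to 6 cell barcodes in pairs, and at most 2 among kept cells.

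The kept cells were compared in 3 groups. Nos1 cells had at least 1 Nos1 UMI (67, 434 and 547 cells), and Nos1 marks LRP neurons. Sst-high cells had at least 5 Sst UMIs and no Nos1 UMI (1920, 757 and 896 cells). Sst-0 Lhx6 cells had at least 1 UMI of Lhx6, a transcription factor of interneurons born in the medial ganglionic eminence, and no Sst UMI (776, 491 and 559 cells). Of these, 2, 26 and 14 cells were also Nos1 cells. Levels are CPM, the summed UMIs of a gene in a group of cells scaled to a total of 1000000 UMIs, with exact Poisson 95% intervals that cover counting error only.

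The inhibitory markers Gad1, Gad2 and Slc32a1 were found in all 3 groups at all stages. Lhx6 was too, but the rule of Sst-0 Lhx6 cells requires it there. Microglial and oligodendrocyte markers lay at or near 0, with at most 0.51 CPM for a whole list. Nos1 cells at E16.5 were the exception to the label. Their 5 excitatory neuron markers summed to 581 CPM, against 154 at P1, 6.11 at P5 and 1.81 to 25.4 CPM in the other groups. Their 4 markers of astroglia and radial glia summed to 18.5 CPM, against 0.403 to 5.22 CPM at the other stages and in the other groups. Of the 67 cells, 14 (20.9%) held at least 2 UMIs of excitatory or glial markers, against 4.15% at P1 and 0.548% at P5. Values without such cells are therefore also given for the stage differences of Bcl2l1, Bax and Bbc3. They are also given for the ratios of Nos1 to Sst-high cells at E16.5. Levels at E16.5 then leave out these 14 cells, whereas log2 ratios and calls leave out such cells at each stage and in each group. The other values of E16.5 Nos1 cells include the 14 cells.

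Free RNA was gauged by genes that a cell should lack. Hbb-bs and Hba-a1, the hemoglobin genes, summed to at most 2.22 CPM in any of the 3 groups. In 37, 32 and 23 kept cells with excitatory markers and no Gad1 or Gad2, Sst stood at 73.5, 39.1 and 21.7 CPM, against 4671, 2819 and 2848 CPM in Sst-high cells. The Sst-high cells were chosen by their Sst UMIs, so their level is high by rule. Nos1 was found in 12, 9 and 2 of these excitatory-marker cells, at 39.2, 61.45 and 21.7 CPM, and those cells are among the Nos1 cells. Whether their Nos1 UMIs are free RNA was not tested. No cell type is known to lack the 9 genes themselves, so a low share of cells with a UMI has no floor of its own here.

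With 1 library per stage no test was possible. A gene is called higher or lower when its CPM differed by at least 1.5-fold and the Poisson intervals of both values did not overlap, among genes with at least 20 UMIs over both groups of cells. From E16.5 to P5, Bcl2l1 and Bbc3 were called higher in all 3 groups of cells, which are 2 of the 8 genes tested in all of them. Over all 9433 genes tested, 11.9% were called higher in all 3 groups. No member was called lower in all 3, beside 11.7% of genes. The plot of levels shows the course of each gene.

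**Figure D1:**
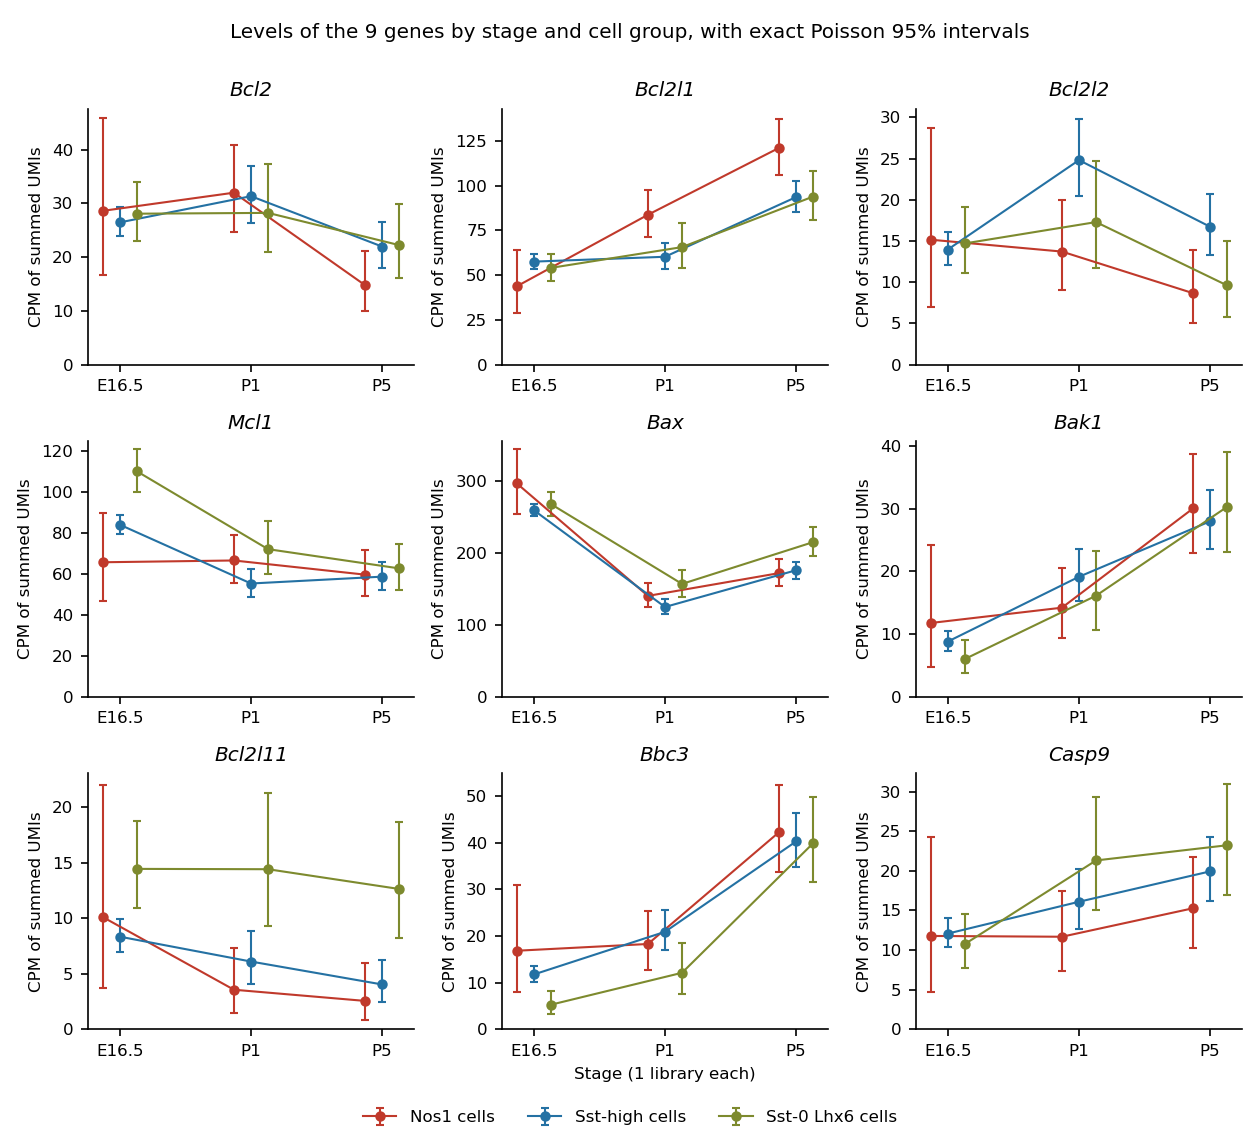
Level of each of the 9 genes (CPM of summed UMIs, vertical axis, separate scale per gene) at E16.5, P1 and P5 (horizontal axis) in Nos1 cells (red), Sst-high cells (blue) and Sst-0 Lhx6 cells (green), where points are 1 library each and bars are exact Poisson 95% intervals. Bcl2l1, Bak1 and Bbc3 ended highest at P5 in all 3 groups, Bax was lowest at P1, and Bcl2l11 in Sst-0 Lhx6 cells lay above Sst-high cells at each stage.

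Called genes numbered 3 of 8 in Nos1 cells, where Bcl2l11 had too few UMIs, 5 of 9 in Sst-high cells and 5 of 9 in Sst-0 Lhx6 cells. In Nos1 cells 2 were higher and 1 lower, beside 15.7% and 16% of all genes tested. In Sst-high cells 4 were higher and 1 lower, beside 26.2% and 22.7%. In Sst-0 Lhx6 cells 4 were again higher and 1 lower, beside 24.8% and 22.1%. The median log2 ratio of the genes tested was 0.11, 0.24 and -0.18 in the 3 groups, and that of all genes tested was 0.00, 0.02 and 0.00.

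**Figure D2:**
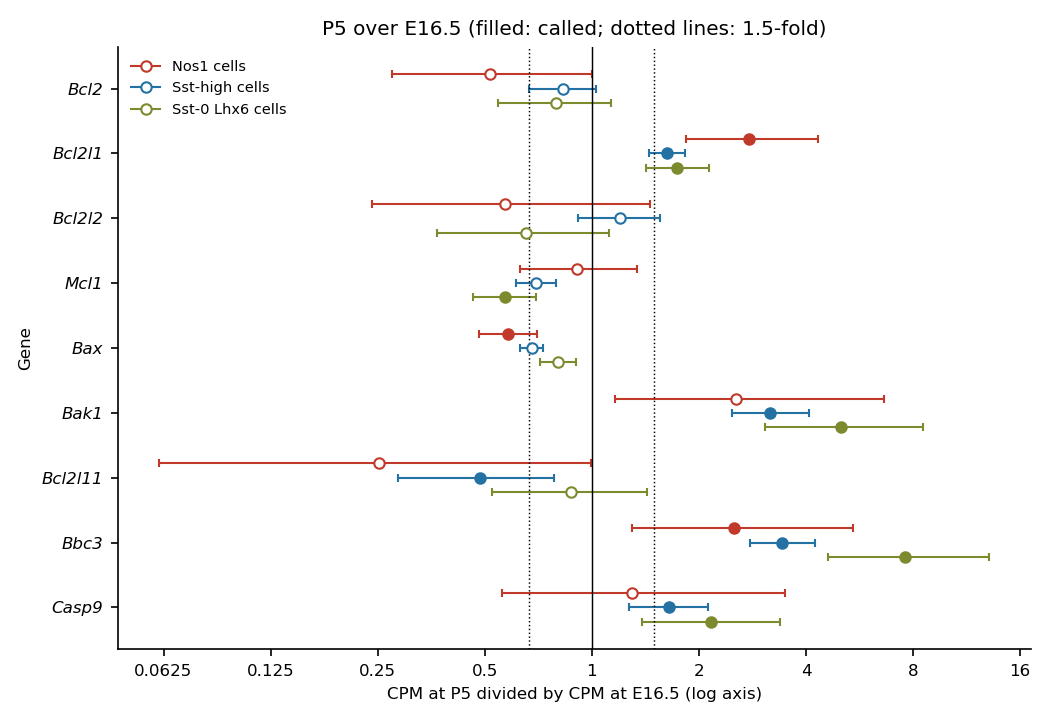
CPM at P5 divided by CPM at E16.5 (horizontal log axis) for each of the 9 genes in Nos1 cells (red), Sst-high cells (blue) and Sst-0 Lhx6 cells (green), with exact conditional 95% intervals for counting error and filled points for called genes. Bcl2l1 and Bbc3 are filled and to the right of the 1.5-fold line in all 3 groups, and Bak1 reaches 5.02-fold and Bbc3 7.603-fold in Sst-0 Lhx6 cells.

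Among the anti-death genes, Bcl2l1, whose product BCL-XL guards the mitochondria of young neurons, was the one called higher at P5. In Nos1 cells it stood at 43.8 CPM at E16.5 (26 UMIs), 83.8 CPM at P1 (165 UMIs) and 121 CPM at P5 (238 UMIs). The P5 level was 2.77-fold the E16.5 level (interval 1.84 to 4.33). Without the 14 marker-holding cells, the E16.5 level was 53.7 CPM (33.7 to 81.3), which still lay below the P5 interval. The step from E16.5 to P1, 1.91-fold (1.26 to 3.02), was called with all cells. It was not called with marker-holding cells left out at each stage, nor under 4 other settings. With every cell thinned to 2000 UMIs, the call over the whole interval was lost as well.

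Sst-high cells had 57.6, 60.3 and 93.7 CPM of Bcl2l1, and Sst-0 Lhx6 cells 54.1, 65.7 and 94.0 CPM. Both groups were thus near the same level at every stage. The P5 level was 1.63-fold (1.45 to 1.83) and 1.74-fold (1.42 to 2.13) the E16.5 level. In Sst-high cells the step from P1 to P5 was called higher, 1.55-fold (1.34 to 1.81), and the change from E16.5 to P1 was 1.05-fold (0.911 to 1.20). The call was lost under 4 of 14 other settings. The log2 ratio was 0.40 instead of 0.63 among cells with more than 1000 genes and an mt- share under 5%. With an mt- share under 5%, the P1 and P5 intervals overlapped (49.96 to 89.3 and 81.1 to 99.5 CPM). From 5% to 10% they were apart (51.5 to 67.1 and 91.1 to 139.2 CPM). The share of Nos1 cells with a Bcl2l1 UMI was 31.3%, 28.3% and 35.1%, while their median depth dropped from 7863 to 3704 and 3073 UMIs. With each cell thinned to 2000 UMIs, the share was 13.85% (6.53 to 24.7, 65 cells), 17.4% (13.6 to 21.8, 356 cells) and 22.5% (18.5 to 26.8, 414 cells). At equal depth the order of the shares was that of the CPM, but the intervals of E16.5 and P5 overlapped. In the excitatory-marker cells, Bcl2l1 was also lower at E16.5 (44.1 CPM, 26.2 to 69.7) than at P5 (207 CPM, 124 to 323), on 18 and 19 UMIs.

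Bcl2, the founding member of the family, was at 28.6, 32.0 and 14.8 CPM in Nos1 cells, 26.5, 31.3 and 22.0 CPM in Sst-high cells, and 28.1, 28.2 and 22.2 CPM in Sst-0 Lhx6 cells. P5 was the lowest stage in each group. The step from P1 to P5 was called lower in Nos1 cells, by 2.17-fold (1.37 to 3.49), and not in Sst-high cells (1.43-fold lower, 1.11 to 1.85) or Sst-0 Lhx6 cells (1.27-fold lower, 0.828 to 1.95). The difference between these steps was not tested. From E16.5 to P5 Bcl2 was called in no group.

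Bcl2l2 had few UMIs, 9 to 201 per group and stage, and was called over the whole interval in no group. In Sst-high cells it was 13.96 CPM at E16.5, 24.8 CPM at P1 and 16.7 CPM at P5, with the step to P1 called higher (1.78-fold, 1.40 to 2.25). This call was lost under 5 of 14 other settings, and the log2 ratio was 0.22 instead of 0.79 among cells with more than 1000 genes and an mt- share under 5%. The P1 peak was seen with fewer UMIs in Sst-0 Lhx6 cells (14.7, 17.3 and 9.60 CPM, not called), and Nos1 cells had 15.2, 13.7 and 8.66 CPM. Bcl2l2 shares 594 exonic bases with the same-strand readthrough gene Gm20521, which was counted at 0 UMIs in all 3 groups. Reads that fall in exons of both genes were not counted for either.

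Mcl1, whose short-lived product must be made steadily, was 84.0, 55.3 and 58.6 CPM in Sst-high cells and 110, 72.0 and 62.65 CPM in Sst-0 Lhx6 cells. The level was highest at E16.5 in both. The step to P1 was called lower, by 1.52-fold (1.33 to 1.75) and 1.53-fold (1.25 to 1.88), just past the limit, and these calls were lost under 6 and 4 of 14 other settings. Over the whole interval it was called lower in Sst-0 Lhx6 cells (1.76-fold, 1.43 to 2.16), whereas the 1.43-fold difference (1.26 to 1.63) in Sst-high cells was under the limit. Nos1 cells had 65.6, 66.5 and 59.6 CPM, and their P5 level was 0.908 times that at E16.5 (0.627 to 1.34).

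The early response genes Fos, Egr1 and Junb, which dissociation of tissue can induce, were also highest at E16.5. Their summed level was 202, 34.4 and 52.98 CPM in Sst-high cells, 122, 9.80 and 40.9 CPM in Sst-0 Lhx6 cells and 170, 22.3 and 29.0 CPM in Nos1 cells, with all 3 genes detected in each group. Their part in the result was not tested.

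Of the pore formers, Bax was called lower at P1 than at E16.5 in every group. In Nos1 cells it was 296, 140 and 172 CPM, in Sst-high cells 259, 125 and 176 CPM, and in Sst-0 Lhx6 cells 268, 157 and 215 CPM. The intervals of E16.5 lay above those of both postnatal stages in all 3 groups. Without the 14 marker-holding cells, the E16.5 level of Nos1 cells was 280.7 CPM (231.7 to 336.9). With marker-holding cells left out at each stage, the log2 ratios to E16.5 were -1.01 at P1 and -0.72 at P5. The step to P1 with all cells was 2.11-fold (1.74 to 2.56), 2.08-fold (1.90 to 2.27) and 1.71-fold (1.49 to 1.96) lower. Genes called lower at this step made up 8.53%, 11.6% and 9.38% of those tested in the 3 groups, and those called higher 12%, 23.7% and 16.8%.

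Bax then stood higher at P5 than at P1, by 1.225-fold to 1.409-fold, which was under the limit in all 3 groups. Over the whole interval it was 1.73-fold lower (1.43 to 2.08) and called in Nos1 cells, 1.47-fold lower (1.37 to 1.59) in Sst-high cells and 1.25-fold lower (1.11 to 1.40) in Sst-0 Lhx6 cells, just under and well under the limit. The share of Sst-high cells with a Bax UMI at 2000 UMIs per cell was 41.3% (39.0 to 43.5) at E16.5, 24.9% (21.5 to 28.5) at P1 and 28.0% (24.9 to 31.3) at P5. In Sst-0 Lhx6 cells it was 42.25% (38.6 to 46), 29.3% (24.8 to 34.2) and 36.0% (31.6 to 40.7). At equal depth the intervals of E16.5 lay above both later stages in Sst-high cells, and above P1 but not P5 in Sst-0 Lhx6 cells. Excitatory-marker cells had 306, 117 and 326 CPM of Bax, so that the P5 level there was not below that at E16.5. Bax shares 192 exonic bases with Gm45808 on its strand, which was counted at 0 UMIs in the 3 groups.

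Bak1, the other pore former, was lowest at E16.5 in every group. It was 8.82 CPM (127 UMIs) at E16.5, 19.2 CPM (88 UMIs) at P1 and 28.0 CPM (139 UMIs) at P5 in Sst-high cells, which is 3.18-fold (2.48 to 4.07) over the whole interval. In Sst-0 Lhx6 cells it was 6.04, 16.1 and 30.3 CPM, or 5.02-fold (3.06 to 8.51). No 2 of the 3 stages overlapped in Sst-high cells except P1 and P5, whose intervals met narrowly (15.4 to 23.6 and 23.5 to 33.1). The step from E16.5 to P1, called higher in Sst-high and Sst-0 Lhx6 cells, lost its call in both under 2 of 14 other settings. These were thinning to 2000 UMIs, and cells with more than 1000 genes and an mt- share under 5%. In Sst-high cells the log2 ratio was then 0.42 and 0.37 instead of 1.04. Nos1 cells had 11.8 CPM (7 UMIs), 14.2 CPM and 30.05 CPM. Their whole difference, 2.55-fold (1.16 to 6.62), was not called because of the wide E16.5 interval (4.74 to 24.3). The step from P1 to P5 was called in Nos1 cells, at 2.11-fold (1.33 to 3.44), and that call was lost under the same 2 settings. In the excitatory-marker cells Bak1 had 1 UMI in the P1 library and 0 in the others.

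BCL-XL and BAX are direct partners, and the share of Bcl2l1 among the UMIs of both genes was taken within each group, where total depth cancels. In Nos1 cells it was 12.9% (8.58 to 18.3) at E16.5, or 16.1% (10.35 to 23.3) without the 14 marker-holding cells, 37.4% (32.9 to 42.1) at P1 and 41.4% (37.3 to 45.5) at P5. In Sst-high cells it was 18.2% (17.1 to 19.3), 32.6% (29.4 to 35.9) and 34.8% (32.2 to 37.4), and in Sst-0 Lhx6 cells 16.8% (14.8 to 19.03), 29.5% (25.0 to 34.4) and 30.4% (26.8 to 34.3). All 3 groups had the lowest share at E16.5, with intervals apart from both later stages, and P1 and P5 overlapped in each. The exact Clopper-Pearson interval of Nos1 cells at P5 lay above that of Sst-0 Lhx6 cells and met that of Sst-high cells only at its end.

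Bbc3 encodes PUMA, a BH3-only protein that p53 and other stress signals induce. It stood at 11.7 CPM (169 UMIs), 20.9 CPM (96 UMIs) and 40.3 CPM (200 UMIs) in Sst-high cells, with all intervals apart. Both steps were called, the first 1.78-fold (1.37 to 2.30) and the second 1.93-fold (1.51 to 2.49), and the whole difference was 3.43-fold (2.78 to 4.24). In Sst-0 Lhx6 cells it was 5.25, 12.1 and 39.9 CPM, or 7.603-fold (4.61 to 13.1) over the whole interval. From different levels at E16.5, the groups thus came to nearly the same level at P5.

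Nos1 cells had 16.8 CPM of Bbc3 (10 UMIs), 18.3 CPM (36 UMIs) and 42.3 CPM (83 UMIs). Of the 10 UMIs at E16.5, 7 came from the 14 cells with excitatory or glial markers, and without these the level was 7.32 CPM (1.51 to 21.4). The whole difference was 2.51-fold (1.30 to 5.43) with all cells. With marker-holding cells left out at each stage, the log2 ratio was 2.37. The difference was called both ways. Under 4 of 14 other settings, thinning to 2000 UMIs among them, the call was lost. Excitatory-marker cells had 53.9, 67.0 and 119.6 CPM of Bbc3, above all 3 groups at each stage, on 22, 12 and 11 UMIs. The step of Bbc3 from P1 to P5 was called higher in all 3 groups, the only one of the 9 genes for which this was so. The folds were 2.31 (1.55 to 3.52), 1.93 and 3.30 (2.02 to 5.62) in Nos1, Sst-high and Sst-0 Lhx6 cells. Thinned to 2000 UMIs, the call was lost in Nos1 cells (log2 ratio 0.96) and Sst-high cells (0.67). It was also lost in both among cells with more than 1000 genes and an mt- share under 5% (0.87 and 0.83). Sst-0 Lhx6 cells kept it in all 14 settings. The share of all genes called higher in all 3 groups at this step was not counted. Between P1 and P5, 10.8%, 14.5% and 15.7% of all genes were called higher in Nos1, Sst-high and Sst-0 Lhx6 cells and 19%, 21.4% and 18.2% lower.

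At 2000 UMIs per cell, Bbc3 was found in 1.99% (1.40 to 2.73), 4.31% (2.84 to 6.25) and 7.63% (5.88 to 9.72) of Sst-high cells and in 0.711% (0.231 to 1.65), 1.05% (0.286 to 2.66) and 9.40% (6.86 to 12.5) of Sst-0 Lhx6 cells. In both groups, E16.5 and P5 did not overlap at equal depth.

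Bcl2l11 encodes BIM, a BH3-only protein that loss of trophic support induces in neurons. It was the member with the fewest UMIs, and in Nos1 cells 6, 7 and 5 UMIs (10.1, 3.55 and 2.55 CPM) were too few to compare the stages. In Sst-high cells it was 8.33 CPM (120 UMIs), 6.09 CPM (28 UMIs) and 4.03 CPM (20 UMIs), and the whole difference was called lower, 2.07-fold (1.28 to 3.51). The call was lost under 4 of 14 other settings, thinning to 2000 UMIs (log2 ratio -0.46) among them. Sst-0 Lhx6 cells had 14.4 CPM (55 UMIs), 14.4 CPM (25 UMIs) and 12.6 CPM (25 UMIs), nearly the same at each stage.

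Casp9, the caspase of the apoptosome, was 12.1, 16.1 and 19.9 CPM in Sst-high cells and 10.8, 21.3 and 23.2 CPM in Sst-0 Lhx6 cells. P5 was called higher than E16.5 in both, 1.65-fold (1.28 to 2.13) and 2.16-fold (1.39 to 3.37). The call was lost under 2 of 14 other settings in Sst-high cells. For Sst-0 Lhx6 cells it was lost under 1, among cells with more than 1000 genes and an mt- share under 5%, where the log2 ratio was 0.42 instead of 1.04. In Nos1 cells, 11.8, 11.7 and 15.3 CPM on 7, 23 and 30 UMIs gave a ratio of 1.30 (0.558 to 3.50), which was not called.

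The quality of the cells differed between stages. Genes of endoplasmic reticulum stress (Hspa5, Calr and Hsp90b1) summed to 951, 823 and 560 CPM in Sst-high cells, 835, 802 and 455 CPM in Sst-0 Lhx6 cells and 975, 895 and 504 CPM in Nos1 cells. Cells with an mt- share under 5% were compared with those from 5% to 10%. For Bbc3 in Sst-high cells, the low-share cells had 10.9, 22.05 and 42.5 CPM and the high-share cells 14.03, 20.7 and 28.95 CPM, so that both stood in the order of the stages. For Bax, they had 268, 161 and 177 CPM and 237, 118 and 169 CPM, with E16.5 highest in both. At P1 the Bax intervals of low-share and high-share Sst-high cells were 133 to 193 CPM and 107 to 129 CPM and did not overlap. Other stage differences in Sst-high cells were not alike in both classes. Bak1 was 8.94, 11.02 and 27.8 CPM in low-share cells, where the intervals of E16.5 and P1 overlapped, on 8 UMIs at P1. In high-share cells it was 8.52, 20.7 and 28.95 CPM, with the intervals of E16.5 and P1 apart. Bcl2l2 was 13.9, 15.2 and 16.55 CPM in low-share cells and 14.03, 26.6 and 17.6 CPM in high-share cells, and the intervals of E16.5 and P1 were apart in the high-share cells and overlapped in the low-share cells, which had 11 UMIs at P1. Bcl2l11 was 9.70, 11.02 and 4.08 CPM in low-share cells and 4.76, 5.17 and 3.78 CPM in high-share cells, where the intervals of all stages overlapped. Casp9 was 11.3, 11.02 and 19.2 CPM in low-share cells, with the intervals of E16.5 and P5 apart, and 14.03, 17.1 and 23.9 CPM in high-share cells, where they overlapped.

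The second comparison set the groups against each other within a library, where stage and preparation are shared. Depth and mt- share still differed. Median depth was 7863, 3704 and 3073 UMIs in Nos1 cells and 6457, 4557 and 5542 UMIs in Sst-high cells. Median mt- share was 3.8%, 4.67% and 3.25% in Nos1 cells and 3.997%, 6.06% and 3.905% in Sst-high cells. Between Nos1 cells and Sst-high cells, 0 of 9 genes were called at both E16.5 and P5, and 1 was called at P1. Genes called higher in Nos1 cells were 4.13%, 4.05% and 5.13% of all genes tested, and those called lower 2.4%, 4.76% and 7.85%. The 1 called was Bcl2l2 at P1, 13.7 CPM in Nos1 cells and 24.8 CPM in Sst-high cells, 1.81-fold lower (1.18 to 2.87). At P5 it was 1.93-fold lower (1.14 to 3.47) with overlapping intervals, and at E16.5 the ratio was 1.09 (0.489 to 2.10). The call at P1 was lost under 8 of 14 other settings and its sign turned under 1, among cells with more than 1000 genes and an mt- share under 5%.

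**Figure D3:**
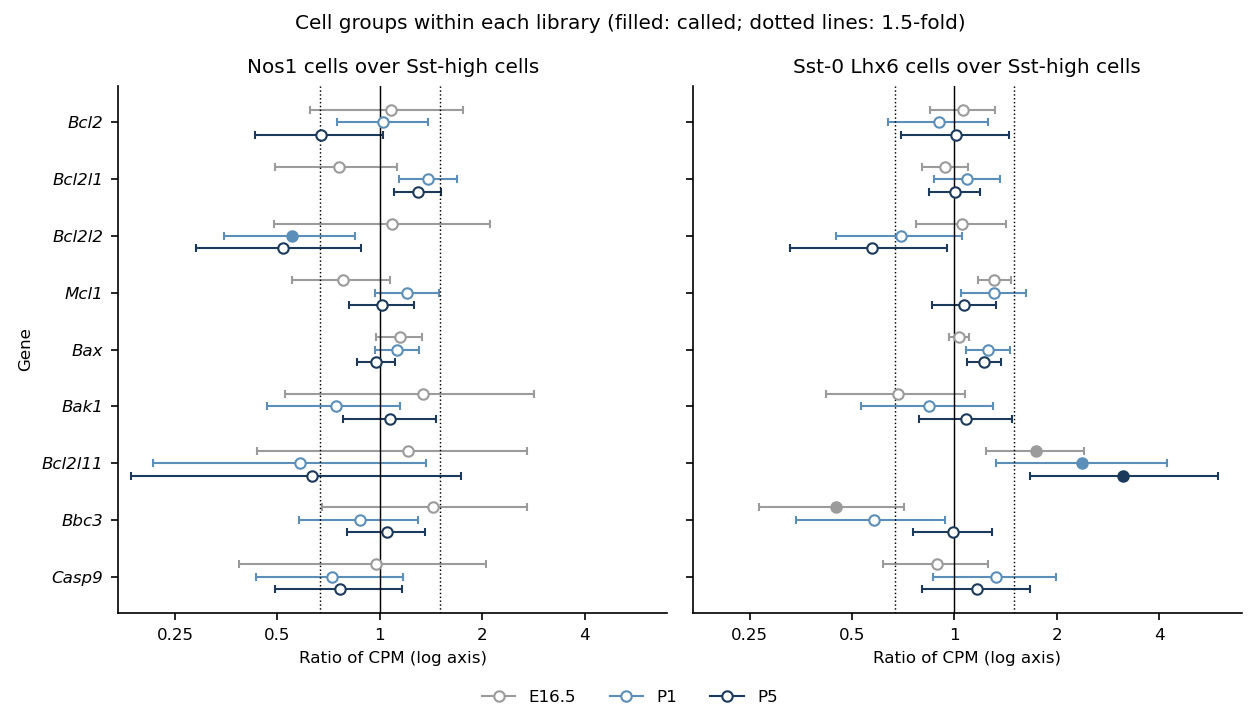
Ratio of CPM (horizontal log axis) of Nos1 cells over Sst-high cells (left) and of Sst-0 Lhx6 cells over Sst-high cells (right) for each of the 9 genes at E16.5 (grey), P1 (light blue) and P5 (dark blue), with exact conditional 95% intervals and filled points for called genes. On the left only Bcl2l2 at P1 is filled, and on the right Bcl2l11 is filled and above 1 at all 3 stages and Bbc3 is filled and below 1 at E16.5.

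For the remaining genes, the intervals give the ratios that counting error alone allows within 1 library, and differences between animals are not covered. At P5, the ratio of Nos1 to Sst-high cells was 0.977 (0.859 to 1.11) for Bax, 1.02 (0.813 to 1.26) for Mcl1, 1.05 (0.802 to 1.36) for Bbc3 and 1.07 (0.778 to 1.47) for Bak1. A difference of 1.5-fold lay outside all 4 intervals. Bcl2l1 was 1.39-fold (1.14 to 1.69) at P1 and 1.29-fold (1.10 to 1.52) at P5, with Poisson intervals that did not overlap but a size under the limit, and 0.760-fold (0.494 to 1.12) at E16.5. With each cell thinned to 2000 UMIs, Bcl2l1 was called higher in Nos1 cells at P1 (log2 ratio 0.90), and was found in 17.4% (13.6 to 21.8) of them and 9.95% (7.68 to 12.6) of Sst-high cells. Leaving out cells with 2 excitatory or glial marker UMIs moved the E16.5 log2 ratio of Nos1 to Sst-high cells from -0.39 to -0.10 for Bcl2l1, from 0.49 to -0.61 for Bbc3 and from 0.11 to 0.47 for Bcl2, and 0 of the 9 genes were called either way. Bcl2 at P5 was 0.673-fold (0.431 to 1.02), Casp9 0.766-fold (0.491 to 1.16) and Bcl2l11 0.632-fold (0.185 to 1.74), which leaves differences of 1.5-fold within reach.

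Between Sst-0 Lhx6 cells and Sst-high cells, Bcl2l11 was called higher in all 3 libraries, at 14.4 against 8.33 CPM, 14.4 against 6.09 CPM and 12.6 against 4.03 CPM. The ratios were 1.73 (1.24 to 2.40), 2.36 (1.32 to 4.21) and 3.14 (1.67 to 5.95). It was 1 of 9 genes, and over all 10737 genes tested in the 3 libraries 0.708% were called higher and 1.39% lower in each of them. Within single libraries, 3.38%, 3.94% and 4.43% of genes were called higher and 7.39%, 8.53% and 4.88% lower.

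The call for Bcl2l11 was lost at E16.5, P1 and P5 under 6, 4 and 2 of 14 other settings. At P1, among cells with more than 1000 genes and an mt- share under 5%, the log2 ratio turned to -0.40. Depth moved with these groups, with medians of 4980 and 6457 UMIs at E16.5, 3117 and 4557 at P1, and 3316 and 5542 at P5 in Sst-0 Lhx6 and Sst-high cells. With 2000 UMIs per cell, Bcl2l11 was found in 2.70% (1.64 to 4.19), 1.31% (0.426 to 3.03) and 2.46% (1.24 to 4.36) of Sst-0 Lhx6 cells and in 1.77% (1.22 to 2.48), 0.995% (0.366 to 2.15) and 1.15% (0.525 to 2.16) of Sst-high cells. The order was the same in all 3 libraries at equal depth, but the intervals overlapped in each.

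Graded by Sst, Lhx6 cells without Nos1 were split into those with 0, 1 to 4, 5 to 19 and 20 or more Sst UMIs. At E16.5, Bcl2l11 was 14.5, 15.8, 12.7 and 6.09 CPM, so that the cells with 20 or more Sst UMIs stood apart from the other three bins. At P1 it was 15.0, 6.64, 5.88 and 6.24 CPM, and at P5 12.98, 1.75, 2.48 and 4.84 CPM on 25, 5, 8 and 6 UMIs. After birth, the cells with no Sst UMI had the highest level, and at P5 their interval (8.402 to 19.2) lay above those of the next 2 bins. The median depth was 4980 to 7566 UMIs from the first to the last bin at E16.5, 3086 to 9054 at P1 and 3316 to 7311 at P5.

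**Figure D4:**
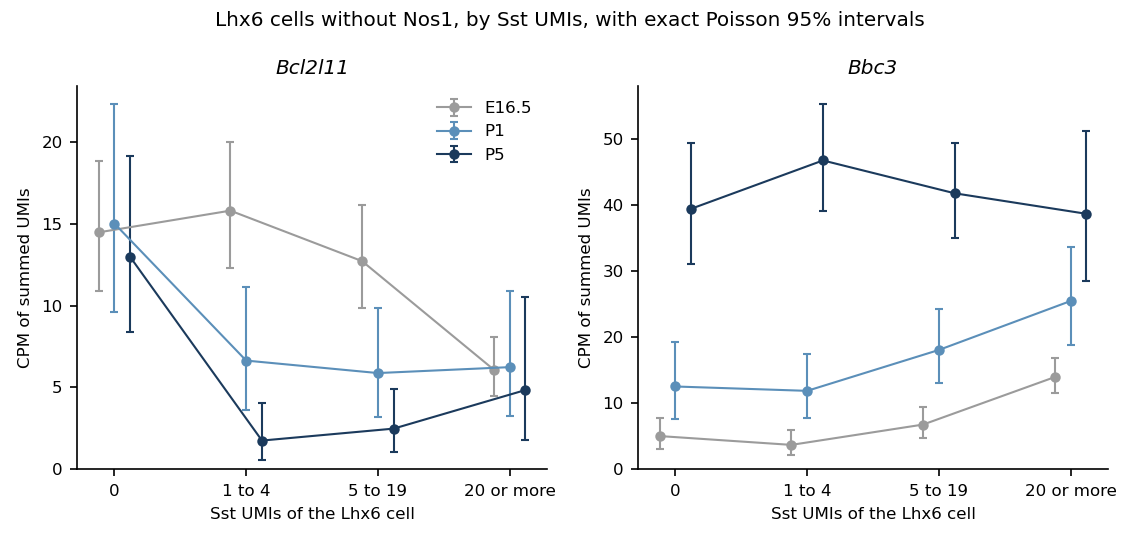
Level of Bcl2l11 (left) and Bbc3 (right) in CPM of summed UMIs (vertical axis) in Lhx6 cells without Nos1 UMIs, split by their Sst UMIs (horizontal axis), at E16.5 (grey), P1 (light blue) and P5 (dark blue) with exact Poisson 95% intervals. Bcl2l11 is lower in cells with 20 or more Sst UMIs than in cells with none at E16.5, and lower in cells with 1 to 19 Sst UMIs at P5, while Bbc3 is highest in the cells with most Sst UMIs at E16.5.

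Bbc3 ran the other way at E16.5, where it was called lower in Sst-0 Lhx6 cells than in Sst-high cells (5.25 against 11.7 CPM, 2.24-fold, 1.40 to 3.75). By Sst bin it was 5.01, 3.67, 6.75 and 13.95 CPM, with the interval of the last bin (11.5 to 16.8) above the other three. At P1 the ratio was 0.579 (0.343 to 0.936) and not called, but it was called with each cell thinned to 2000 UMIs (log2 ratio -2.01), where Bbc3 was found in 1.05% (0.286 to 2.66) of Sst-0 Lhx6 cells, 4 cells, and 4.31% (2.84 to 6.25) of Sst-high cells. At P5 it was 0.991 (0.754 to 1.29), with 38.7 to 46.8 CPM over the bins. Mcl1 was 1.31-fold (1.17 to 1.47) higher in Sst-0 Lhx6 cells at E16.5 and Bax 1.26-fold (1.08 to 1.46) and 1.22-fold (1.09 to 1.37) higher at P1 and P5, all under the limit.

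The other genes of the pathway were read from a list of 62 genes in 10 roles that holds the 9. Of the other 53 genes, 39 had enough UMIs in Sst-high cells, and P5 was called higher than E16.5 for 10 and lower for 11, with a median log2 ratio of 0.04, near that of all genes. In Sst-0 Lhx6 cells 11 of 38 were higher and 8 lower (median 0.16), and in Nos1 cells 4 of 33 were higher and 4 lower (median -0.17). As a whole the list did not lean one way.

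**Figure D5:**
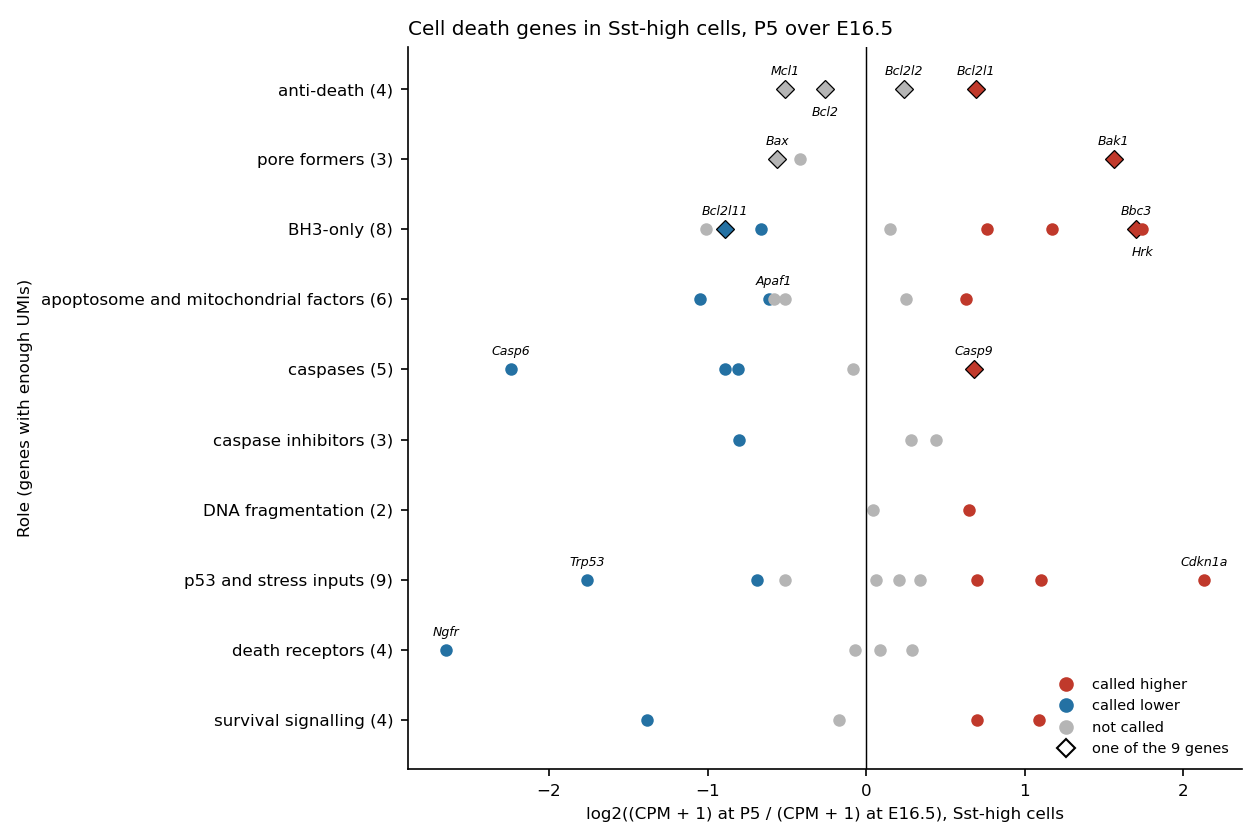
Log2 ratio of CPM + 1 at P5 over E16.5 in Sst-high cells (horizontal axis) for the cell death genes with at least 20 UMIs, by role (vertical axis, number of genes in brackets), with genes called higher in red, called lower in blue and not called in grey, and the 9 genes as diamonds. Bbc3 and Hrk are the farthest to the right among BH3-only genes, Casp9 is the only caspase to the right of 0 and Casp6 the farthest to the left, and Cdkn1a and Trp53 lie at opposite ends of their row.

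Among BH3-only genes, 4 of 8 were called higher at P5 than at E16.5 in Sst-high cells and 2 lower, beside 26.2% and 22.7% of all genes tested. Hrk, a BH3-only gene of neurons, was called higher with Bbc3 (3.84-fold, 2.77 to 5.34, 4.72 against 18.1 CPM). Bnip3l, a BH3-like gene of mitochondrial turnover, was called lower in Nos1 cells (2.49-fold, 2.01 to 3.07). Of 5 caspases tested in Sst-high cells, Casp9 was called higher and 3 lower, beside the same 26.2% and 22.7%. In Sst-0 Lhx6 cells 1 of 5 was higher and 1 lower, beside 24.8% and 22.1%, and in Nos1 cells 0 of 4 were called.

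Apaf1, the scaffold of the apoptosome, was lowest at P5 in each group, at 18.9, 33.5 and 12.3 CPM in Sst-high cells, 30.3, 28.9 and 13.8 CPM in Nos1 cells and 24.1, 20.7 and 9.09 CPM in Sst-0 Lhx6 cells. The step from P1 to P5 was called lower in all 3, by 2.73-fold (2.02 to 3.73), 2.10-fold (1.31 to 3.46) and 2.28-fold (1.26 to 4.27). Casp6 fell from 81 to 2 UMIs in Sst-high cells (5.63 to 0.403 CPM), and Ngfr, which encodes the neurotrophin receptor p75, from 94 UMIs to 1. With so few UMIs at P5, the ratios were 13.96-fold (3.74 to 117) and 32.4-fold (5.68 to 1293) lower.

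In the p53 branch, the mRNA of Trp53, which encodes p53, and that of Cdkn1a changed in opposite directions, and p53 activity was not measured. Trp53 was called lower at P5 in Sst-high cells (3.59-fold, 2.73 to 4.801) and Nos1 cells (3.62-fold, 1.92 to 6.88). Cdkn1a, a p53 target that encodes the cell cycle inhibitor p21, was called higher in both, 4.58-fold (3.90 to 5.39) and 4.64-fold (3.09 to 7.26). Mdm2, which encodes the ligase that degrades p53 and is itself a target, was called lower in Nos1 cells (1.98-fold, 1.25 to 3.11), and Pik3r1, a subunit of the survival kinase PI3K, higher (2.23-fold, 1.41 to 3.71).

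Within the P5 library, 3 genes of the list were called between Nos1 and Sst-high cells, all higher in Nos1 cells, of 36 tested beyond the 9, beside 5.13% of all genes. They were Cdkn1a (195 against 79.2 CPM, 2.46-fold, 2.14 to 2.84), Jun, which encodes a transcription factor of stress signalling (271 against 124 CPM, 2.19-fold, 1.94 to 2.46), and Hrk (30.6 against 18.1 CPM, 1.69-fold, 1.20 to 2.36). The same 3 genes were also called higher in Nos1 cells at P1 and, with the marker-holding cells included, at E16.5.

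Of the 9 genes, Bcl2l1, Mcl1 and Bax had at least 20 UMIs in each of the 9 combinations of group and stage, and the genes most like them were sought among 1035 genes with at least 100 UMIs in each. Bcl2l1 was most like Syt1 (Pearson r = 0.960), Dynll2 (0.934) and Gsdme (0.917). Mcl1 was most like Ttc14 (0.936), Trim35 (0.922) and Srrm2 (0.917), and Bax was most like Rpl32 (0.978), Rps15a (0.977) and Rpl18 (0.974). The 9 points share 3 libraries, so the correlations describe these levels only. With mt- and ribosomal protein genes left out of the total, Bax at P1 over E16.5 kept log2 ratios of -1.10, -1.06 and -0.75 in Nos1, Sst-high and Sst-0 Lhx6 cells.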

How the data were processed

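Tissue from the NCx was dissociated, and GFP+ cells that excluded DAPI were sorted and captured on a 10x Genomics device. Alignment and counting were done by the authors in Cell Ranger, on GRCm38, with version 3.0.2 for the P1 library and version 3.1.0 for the others. The deposited values are UMI counts, whole numbers per gene and cell that were not normalized. Whether strand was used in counting is not given in the sources used here, so the opposite-strand overlaps of Bcl2, Bak1 and Casp9 with other genes were left as they are.

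Cells were filtered and grouped by the limits given above, and UMIs were summed per group and library. CPM, exact Poisson intervals, exact Clopper-Pearson intervals and exact conditional intervals of ratios came from scipy 1.17.1 under Python 3.11.15, after tables were handled with pandas 2.3.3 and numpy 2.4.6. Figures were drawn with matplotlib 3.10.9, and Biopython 1.88 was used to translate GENCODE M21 transcripts. Log2 ratios had a pseudocount of 1 CPM. The calling code was checked on simulated Poisson counts with known folds. These held no variation between animals or libraries, so they do not show how reliable the calls are. Intervals cover counting error only, and no p-value was computed. No doublet caller was run. Other quality limits, group limits, scalings, thinning, UMI minimums, pseudocounts and folds were tried, as were cells with other markers or the most UMIs left out.

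The 9 genes, the pathway list and the marker lists were chosen with earlier results of these data known. Named genes are the 9, Apaf1, the 5 other pathway genes with the largest called log2 ratio in each of 3 comparisons (P5 over E16.5 in Sst-high and in Nos1 cells, Nos1 over Sst-high cells at P5), and the 3 genes most like each of the 9. Some genes that the rule or the comparisons would name are not reported here.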

Additional observations from a re-analysis of the deposited data

How the results depend on the processing

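Over 14 other settings, 35 called ratios of the 9 genes gave 490 values, of which 2 turned sign and 79 lost their call, and 16 calls were gained. Among cells with more than 1000 genes and an mt- share under 5%, the log2 ratio of Bcl2l2 in Nos1 over Sst-high cells at P1 turned to 0.08 and that of Bcl2l11 in Sst-0 Lhx6 over Sst-high cells at P1 to -0.40, and the cause was not tested. The count of 1 gene called in Nos1 over Sst-high cells at P1 was 0 under those limits, with at least 2 Nos1 UMIs, with the mean of per-cell CPM, with a pseudocount of 10 CPM, without cells holding 2 marker UMIs, without cells above the 95th percentile of UMIs, and at 2-fold. In Sst-0 Lhx6 over Sst-high cells, the count of 2 at E16.5 was 1 under the stricter cell limits, with the mean of per-cell CPM, without the cells of most UMIs, and at 2-fold, and 0 when thinned or with a pseudocount of 10 CPM. The count of 1 at P1 was 0 under the first 3 of these, and that of 1 at P5 was 0 when thinned or with at least 50 UMIs. For P5 over E16.5, the count of 3 in Nos1 cells was 1 when thinned to 2000 UMIs, with Bcl2l1 and Bbc3 lost. The count of 5 in Sst-high cells was 3 with a pseudocount of 10 CPM and 2 at 2-fold, and that of 5 in Sst-0 Lhx6 cells was 3 at 2-fold. Bbc3 and Bak1 in Sst-high and Sst-0 Lhx6 cells kept their P5 over E16.5 calls in all 14 settings. No paired analysis was possible because each stage has 1 library, and for the same reason no replicate could be left out. Thinning leaves 65 Nos1 cells at E16.5, and their UMIs limit every comparison with that group.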

Other observations

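Within the Nos1 cells, those with a Dach1 UMI and no Lypd1 UMI were set beside those with the reverse. Dach1 and Lypd1 mark different LRP neurons in the study. At P1, the 98 Dach1 cells had 112 CPM of Bcl2l1 (82.8 to 149) and the 55 Lypd1 cells 68.1 CPM (42.7 to 103), with overlapping intervals. Bax was 157 CPM (121 to 199) and 136 CPM (99.0 to 183), and Casp9 was 30.4 CPM on 13 UMIs and 6.19 CPM on 2 UMIs. At P5, 27 Dach1 cells and 221 Lypd1 cells had 132 and 120.1 CPM of Bcl2l1, 40.7 and 35.3 CPM of Bbc3, and 224 CPM (140 to 339) and 155 CPM (130 to 184) of Bax. The intervals of the 9 genes overlapped between the Dach1 and Lypd1 cells at both stages.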
